A study of Mus musculus with 30 samples.

Results

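Hox genes code for homeodomain transcription factors that give cells their position along the head-to-tail axis of the embryo. All 39 protein-coding mouse genes whose symbol is Hox, a cluster letter and a paralogue number were taken, out of 53715 genes in each of 3 count tables. They comprised 11 Hoxa genes on chromosome 6, 10 Hoxb genes on chromosome 11, 9 Hoxc genes on chromosome 15 and 9 Hoxd genes on chromosome 2. They were chosen by name alone, and all 39 had a row in every table. The tables hold RNA-seq read counts from embryonic mouse lung and trachea, from a study of the role of airway smooth muscle in airway size, in tracheal cartilage and in branching. For that purpose Myocd, the gene of myocardin, a coactivator that switches on contractile genes of smooth muscle, was floxed and deleted.

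The 6 groups were 5 control and 5 mutant E13.5 lungs (lobes of both sides), 4 control and 6 mutant lungs at E18.5 (right lobes), and 4 control and 6 mutant tracheas at E18.5. All mutants were labelled Tbx4rtTAi/+; tetOcrei/+; MyocdF/F, so they carried 2 floxed alleles, a reverse tetracycline transactivator named for Tbx4, a gene of respiratory mesenchyme, and a Cre that depends on tetracycline. The label of the controls was Tbx4rtTAi/+; tetOcrei/+; MyocdF/+, with the same transgenes and 1 floxed allele, apart from E13.5 control replicate 1, labelled MyocdF/F with no transgene. The transactivator acts only where Tbx4 drives it and in the presence of doxycycline, and its dosing is not stated in the sources used. Per the labels, a library holds the RNA of 1 lung or 1 trachea.

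Within each cluster the genes lie in the order of their paralogue numbers, and low numbers are generally switched on earlier and closer to the head than high numbers. Genes of 1 number in different clusters are paralogues, which arose by duplication of an ancestral cluster and can act redundantly. In the lung and trachea Hox transcripts come largely from mesenchyme. Hoxa5 is the best studied of them there: mice without it have malformed tracheas and lungs, and the paralogues of number 5 act together on lung branching. Paralogues 1 to 3 are called anterior below, 4 to 8 central and 9 to 13 posterior.

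The promoters of 5 members that the comparisons below turn on show what the starts of these genes look like. Hoxa2 and Hoxd8 were higher in trachea than in lung, though Hoxd8 was not called in every alternative run in controls. Hoxa5 and Hoxb8 were lower, and Hoxb4 lies beside the first lower gene of its cluster. Each promoter is the 250 bases before the transcription start in the direction of transcription, from RefSeq's annotation of GRCm38.p6. None of these windows holds an exon of the GENCODE vM21 annotation. Capitals mark matches to TGATNNAT, a motif bound by PBX and HOX proteins together, or to TGACAG, the motif of MEIS proteins, searched on both strands. The windows are chr6:52164832-52165081 (minus strand) for Hoxa2, chr6:52204588-52204837 (minus strand) for Hoxa5, chr11:96318017-96318266 (plus strand) for Hoxb4, chr11:96281655-96281904 (plus strand) for Hoxb8 and chr2:74704365-74704614 (plus strand) for Hoxd8.
Hoxa2: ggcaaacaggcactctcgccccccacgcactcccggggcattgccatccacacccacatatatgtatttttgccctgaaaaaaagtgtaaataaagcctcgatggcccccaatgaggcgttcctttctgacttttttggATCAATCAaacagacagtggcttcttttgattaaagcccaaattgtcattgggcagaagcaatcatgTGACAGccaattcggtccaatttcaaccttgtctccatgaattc
Hoxa5: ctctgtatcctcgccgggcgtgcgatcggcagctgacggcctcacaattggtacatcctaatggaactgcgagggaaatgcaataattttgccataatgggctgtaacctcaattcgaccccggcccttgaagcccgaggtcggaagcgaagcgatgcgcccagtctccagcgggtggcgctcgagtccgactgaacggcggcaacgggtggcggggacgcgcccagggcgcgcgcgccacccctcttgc
Hoxb4: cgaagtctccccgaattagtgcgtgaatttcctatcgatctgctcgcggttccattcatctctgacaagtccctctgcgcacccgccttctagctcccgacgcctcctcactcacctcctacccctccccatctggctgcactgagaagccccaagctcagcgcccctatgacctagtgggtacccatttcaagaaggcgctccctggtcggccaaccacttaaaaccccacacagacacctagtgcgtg
Hoxb8: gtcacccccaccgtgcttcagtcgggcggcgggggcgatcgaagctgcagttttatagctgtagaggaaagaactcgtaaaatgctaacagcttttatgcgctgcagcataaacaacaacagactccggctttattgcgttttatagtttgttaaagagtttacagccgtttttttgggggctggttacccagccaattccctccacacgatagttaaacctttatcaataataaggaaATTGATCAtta
Hoxd8: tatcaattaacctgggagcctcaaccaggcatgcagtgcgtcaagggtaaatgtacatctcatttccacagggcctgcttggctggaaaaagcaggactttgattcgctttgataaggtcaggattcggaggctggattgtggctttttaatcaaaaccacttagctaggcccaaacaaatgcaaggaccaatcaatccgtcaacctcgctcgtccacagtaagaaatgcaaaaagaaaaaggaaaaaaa

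Hoxa2 held both motifs, TGATNNAT starting 111 bases before the transcription start and TGACAG starting 44 bases before it, and they did not overlap. Hoxb8 held TGATNNAT starting 11 bases before its start. Hoxa5, Hoxb4 and Hoxd8 held neither. RefSeq's promoter table listed 24 windows for 22 of the 39 genes. Of these, 4 held TGATNNAT (16.7%) and 2 held TGACAG (8.33%), against 7.68% and 15.9% of all 32851 promoters of the table cut to the same 250 bases. These matches describe the letters of the windows and nothing more.

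Total counts per library, in 1e6 reads, ran from 11.7 to 32.8. The libraries that stood apart were E13.5 mutant replicate 1, trachea control replicate 2 and trachea mutant replicate 4. Their genes deviated from the group median by a median of 0.237, 0.227 and 0.317 log2 units, against at most 0.125 in the other 27. Each was also the shallowest library of its table or, for trachea mutant replicate 4, the next to it. The labelled tissues matched their markers at E18.5: the summed level of 8 lung epithelium genes was 15319.8 to 17911.5 CPM (counts per 1e6 counts of a library, on normalized library sizes) in control lungs and 887 to 960.0 CPM in control tracheas. For 8 cartilage genes it was 50.8 to 65.2 CPM in the lungs and 9348 to 14399.5 CPM in the tracheas. Myocd kept reads in every library, at 10.1 to 18.8 CPM in E13.5 control lungs and 6.74 to 13 CPM in mutants, 6.02 to 11.8 and 5.59 to 10.1 CPM at E18.5, and 0.888 to 8.05 and 2.69 to 8.80 CPM in the tracheas. By edgeR its log2 fold changes in mutants were -0.29 (SE 0.240), -0.35 (SE 0.209) and 0.26 (SE 0.455), and none passed the test. The labels do not name the floxed exons and the counts are per gene, so reads from what remains of Myocd are included and these values check no label.

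The respiratory Hox repertoire was confined to a few blocks of neighbouring genes. Of the 39 genes, 18 reached a mean of 1 CPM in at least 1 group, among them Hoxa2 to Hoxa7, Hoxb2 to Hoxb8, Hoxc4, Hoxc5, Hoxd8 and Hoxd9. A further 15 had reads but stayed below 1 CPM in every group, and 6 had no read in any of the 30 libraries: Hoxc9, Hoxc11, Hoxc12, Hoxc13, Hoxd4 and Hoxd12. A count of 0 over 30 libraries allows a mean of up to 0.00396 CPM (3 counts of the total), for counting error only. Hoxd4 is a special case, because all of its annotated exon bases overlap exons of other genes, so the authors' counting could not assign it a read. Of the 16 posterior genes, Hoxd9 alone reached 1 CPM, and it did so in the trachea. E13.5 lung had 16 genes at 1 CPM or more in either genotype, E18.5 lung had 14 and the trachea 12 in controls and 11 in mutants, the difference being Hoxc4 at 1.80 ± 1.28 CPM (SD, n = 4) and 0.987 ± 0.728 CPM (SD, n = 6).

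**Figure D1:**
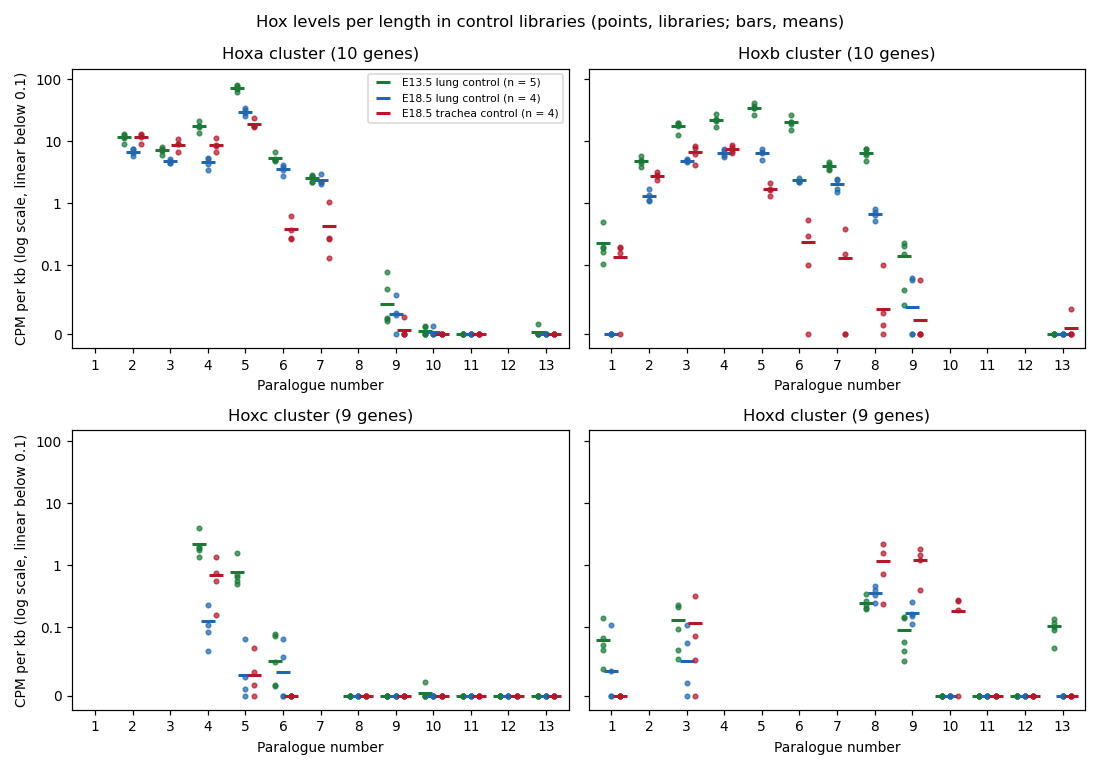
Levels of Hox genes in control libraries against paralogue number, 1 panel per cluster, in CPM per kb of exon that no other gene overlaps (log scale, linear below 0.1); points are libraries and bars are group means for E13.5 lung (green), E18.5 lung (blue) and E18.5 trachea (red). Hoxa5 is the highest gene in each tissue. In the first 2 clusters the trachea falls below the E18.5 lung from Hoxa5 to Hoxa7 and from Hoxb5 to Hoxb8.

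Levels were compared between genes only per length, as CPM per kb of exon that no other gene overlaps. On that scale Hoxa5 (chromosome 6, 52201754 to 52204587, minus strand) had the highest mean in all 6 groups. In control lungs at E13.5 its level was 72.8 ± 7.26 CPM per kb (SD, n = 5), at E18.5 it was 30.3 ± 3.80 (SD, n = 4), and in control tracheas it was 19.2 ± 3.01 (SD, n = 4). In each of these groups its lowest library was above the highest library of the next gene. The next at E13.5 were the other central genes Hoxb5 at 35.2 ± 5.52, Hoxb4 at 22.1 ± 3.71 and Hoxb6 at 20.5 ± 4.27 CPM per kb (SD, n = 5). Hoxb5 was above Hoxb4 in 5 of 5 libraries, and so was Hoxb4 above Hoxb6, although the ranges of these neighbours overlapped. Hoxb3 at 17.7 ± 2.90 and Hoxa4 at 17.6 ± 2.52 CPM per kb did not differ beyond their spread.

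The order was another one at E18.5. In control lungs Hoxa2, Hoxb4, Hoxb5, Hoxb3, Hoxa3 and Hoxa4 followed Hoxa5 at 6.77 ± 0.824, 6.54 ± 0.912, 6.47 ± 1.08, 4.89 ± 0.240, 4.76 ± 0.342 and 4.59 ± 0.852 CPM per kb (SD, n = 4), each range overlapping that of the next. In control tracheas the anterior genes Hoxa2 at 11.7 ± 1.95 and Hoxa3 at 8.89 ± 1.76 CPM per kb came next, then Hoxa4, Hoxb4 and Hoxb3 at 8.83 ± 1.90, 7.53 ± 0.963 and 6.67 ± 1.87 CPM per kb (SD, n = 4). Hoxb5, in the second place at E13.5, was in the eighth place in the trachea at 1.71 ± 0.350 CPM per kb. Overlap with neighbouring genes limits these levels, since reads on shared bases were not counted: 52.9% of the exon bases of Hoxb3, 27.3% of Hoxb2 and 27.1% of Hoxa3 lie in such stretches. 

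By cluster, Hoxa and Hoxb genes supplied nearly all Hox reads. Summed over members, the Hoxb cluster gave 50.4% to 53.9% of Hox CPM in the 5 control lungs at E13.5, 32.9% to 36.0% in the 4 at E18.5 and 27.1% to 28.9% in the 4 control tracheas. The Hoxa share was 43.6% to 48.0%, 62.7% to 65.7% and 66.1% to 69.0% in the same groups. The sum of all 39 genes had a median of 501 CPM in E13.5 control lungs, 166 CPM at E18.5 and 159.8 CPM in tracheas, so the totals of lung and trachea at E18.5 overlapped in controls while these shares did not. In mutants the shares overlapped too, with Hoxa at 59.4% to 65.3% in lung and 58.5% to 69.8% in trachea and Hoxb at 33.2% to 39.6% and 24.7% to 36.6%.

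Trachea and lung at E18.5 differed along the Hoxa and Hoxb clusters, where genes from paralogue 5 on were lower in trachea. In controls the anterior genes Hoxa2, Hoxa3 and Hoxb2 and the central gene Hoxa4 were higher in trachea than in lung, and every member of the Hoxa and Hoxb clusters from Hoxa5 and Hoxb5 up to Hoxa7 and Hoxb8 was lower. Of the 39 genes, 18 passed the filter on low counts and 15 of them passed the edgeR test, 8 higher and 7 lower in trachea. Hoxa6, Hoxb7 and Hoxb8 passed that filter in E18.5 lung and not in trachea, and Hoxb1 in trachea and not in lung. The filter thus favoured the direction in which these genes were called. Across all 19859 genes tested 49.1% were called (24.5% higher, 24.6% lower), so a call was common and the counts are to be read against that share. The median log2 fold change was 0.37 over the tested members. Mutants, which are other animals, showed the same directions: 16 of 18 tested members passed, 9 higher and 7 lower, where 58.2% of all genes were called (31.7% higher, 26.5% lower). The 7 lower genes were Hoxa5, Hoxa6, Hoxa7, Hoxb5, Hoxb6, Hoxb7 and Hoxb8 in both genotypes.

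**Figure D2:**
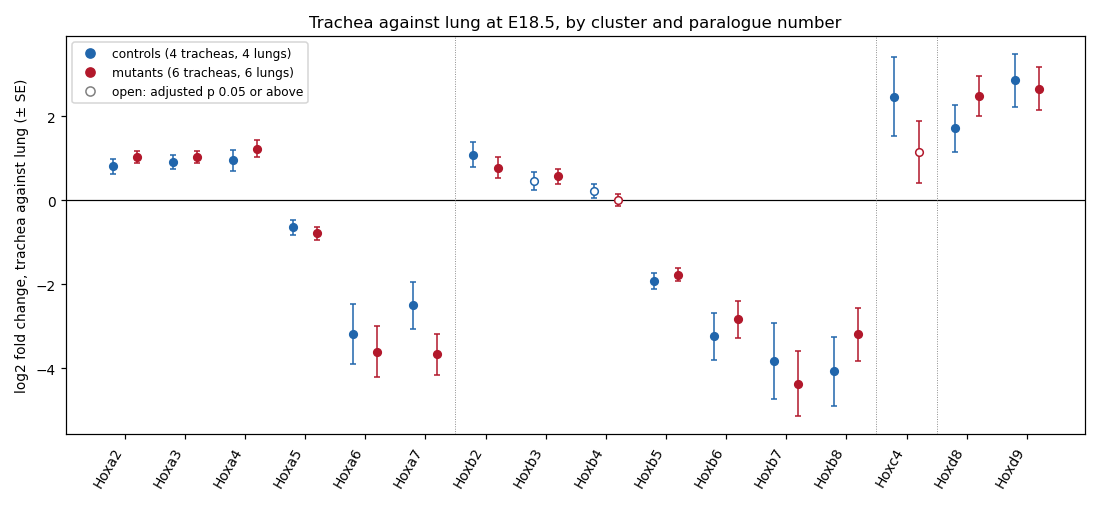
Log2 fold change of trachea against lung at E18.5 for tested Hox genes, ordered by cluster and paralogue number, in controls (blue, 4 tracheas and 4 lungs) and mutants (red, 6 and 6); bars are SE and open points did not pass the edgeR test. Values turn from above 0 to below 0 between Hoxa4 and Hoxa5. They lie below 0 from Hoxb5 to Hoxb8, while Hoxb4 did not pass in either genotype. Hoxb1, without reads in lung, is left out.

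In the Hoxb cluster the genes lower in trachea began at Hoxb5, and Hoxb4 did not differ detectably. Hoxb4 (chromosome 11, 96318267 to 96321638, plus strand) was at 14.2, 18.1, 19.3 and 15.5 CPM in the 4 control lungs and at 16.7, 22.0, 17.9 and 20.7 CPM in the 4 control tracheas. Its ranges overlapped and its log2 fold change of 0.21 (SE 0.167, 95% interval -0.11 to 0.54) did not pass edgeR's test (edgeR adjusted p 0.309). Its neighbour Hoxb5 (96303336 to 96306121) was at 14, 17.5, 17.9 and 20.6 CPM in the same lungs and at 3.54, 5.81, 4.63 and 4.37 CPM in the tracheas. Every trachea was below every lung, with a log2 fold change of -1.92 (SE 0.193, edgeR adjusted p 6.8e-09). In mutants Hoxb5 was lower by a similar amount, at -1.77 (SE 0.156), while Hoxb4 was at 0.00 (SE 0.149).

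Further into the cluster the trachea was near the floor of detection. Hoxb6 was at 4.41, 4.50, 5.12 and 4.41 CPM in control lungs and at 1.06, 0, 0.585 and 0.200 CPM in control tracheas. Hoxb7 was at 2.68, 2.33, 3.74 and 3.86 CPM in the lungs and at 0, 0, 0.585 and 0.234 CPM in the tracheas. Hoxb8 was at 1.39, 1.91, 1.72 and 2.11 CPM and at 0.0813, 0, 0.270 and 0.0334 CPM. All 3 thus had tracheas without a read and no overlap between tissues. Their log2 fold changes by edgeR were -3.24 (SE 0.554, edgeR adjusted p 2.5e-05), -3.84 (SE 0.908, edgeR adjusted p 0.00105) and -4.08 (SE 0.822, edgeR adjusted p 0.000194). Single tracheas moved these sizes, to -4.01 for Hoxb6 without control replicate 1 and to -4.98 for Hoxb7 and -5.20 for Hoxb8 without control replicate 3, and all stayed past the threshold.

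In the Hoxa cluster the first lower gene differed less. Hoxa5 was at 47.8, 60.4, 64.2 and 54.9 CPM in control lungs and at 33.5, 44.5, 33.7 and 32.5 CPM in control tracheas, so the groups did not overlap, with a log2 fold change of -0.65 (SE 0.181, edgeR adjusted p 0.00442). Hoxa6 was at 3.36, 2.39, 3.06 and 3.62 CPM in the lungs against 0.325, 0.242, 0.540 and 0.234 CPM in the tracheas. Hoxa7 was at 6.75, 5.04, 4.70 and 5.13 CPM against 0.610, 2.42, 0.630 and 0.300 CPM, where the 2.42 belongs to trachea control replicate 2. Both were lower in every trachea than in any lung, by log2 fold changes of -3.18 (SE 0.715) and -2.51 (SE 0.567), the latter being -3.42 without trachea control replicate 2 and mutant replicate 4. Of the 18 tested members, 12 had no overlap between control tracheas and lungs, against 47.8% of all genes, and 13 had none in mutants, against 39.8%.

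Anterior genes, and Hoxa4 beside them, were higher in trachea. Hoxa3, which patterns structures of the pharynx and neck, was at 20.8, 19.9, 23.0 and 19.8 CPM in control lungs and at 39.5, 29.1, 39.6 and 47.9 CPM in control tracheas, without overlap. Its log2 fold change was 0.91 (SE 0.166, edgeR adjusted p 5.8e-05). Hoxa2, a gene that patterns the second pharyngeal arch, and Hoxa4 had log2 fold changes of 0.80 (SE 0.182) and 0.95 (SE 0.252), and Hoxb2 one of 1.08 (SE 0.303). Hoxb3, at 0.46 (SE 0.214, edgeR adjusted p 0.0790), did not pass in controls and did in mutants, at 0.57 (SE 0.175, edgeR adjusted p 0.00743). The difference between genotypes was itself tested, and 0 of 18 members passed (0.0252% of all genes were called). For Hoxb1, without a read in E18.5 lung, this test could not decide (SE 3216).

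Hoxb1, which patterns the hindbrain, had no read in any of the 10 lungs at E18.5. In control tracheas it was at 0.366, 0, 0.450 and 0.434 CPM, a mean at least 12.2-fold higher than the 0.0256 CPM that 3 counts over the 4 control lungs amount to. In the 6 mutant tracheas it ran from 0.291 to 2.13 CPM with a median of 0.505 CPM, a mean at least 38.8-fold higher than 3 counts over the 6 mutant lungs. The highest value is that of trachea mutant replicate 4, and without it the mean is at least 24.3-fold higher.

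The Hoxd cluster did not follow this pattern of the Hoxa and Hoxb clusters, since Hoxd8 and Hoxd9 were higher in trachea. In controls the call of Hoxd8 did not hold in every alternative run. Hoxd9 was at 0.543, 0.239, 0.343 and 0.318 CPM in control lungs and at 0.854, 3.88, 3.15 and 2.60 CPM in control tracheas, with a log2 fold change of 2.85 (SE 0.621, edgeR adjusted p 0.000454). Hoxd8 was at 1.09, 1.28, 0.687 and 0.915 CPM against 4.27, 0.646, 1.98 and 5.94 CPM. These ranges overlapped through trachea control replicate 2, and the log2 fold change was 1.71 (SE 0.569, edgeR adjusted p 0.0153). Hoxc4 was at 0.170, 0.596, 0.240 and 0.278 CPM against 0.406, 3.47, 1.89 and 1.44 CPM, a log2 fold change of 2.47 (SE 0.936, edgeR adjusted p 0.0318).

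Lung and trachea libraries with the same replicate number deviated together, a pairing that the main fit above leaves out. With that number as a block 13 members were called in controls, 6 higher and 7 lower. The block called 9336 of all 19859 genes tested. The 2 lost were Hoxd8, at 1.43 (SE 0.607, edgeR adjusted p 0.0638), and Hoxc4, at 2.31 (SE 1.07, edgeR adjusted p 0.0876). Hoxd8 was also lost without trachea control replicate 4, at 1.23 (edgeR adjusted p 0.0938), and Hoxc4 without any 1 of 5 libraries (lung control replicates 1, 3 and 4, trachea control replicates 2 and 3), at edgeR adjusted p 0.0506 to 0.0924 and log2 fold changes of 1.92 to 2.44. In mutants Hoxd8 and Hoxd9 passed in every alternative run, at log2 fold changes of 2.48 (SE 0.476) and 2.65 (SE 0.507), and Hoxc4 at 1.15 (SE 0.737) did not pass.

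**Figure D3:**
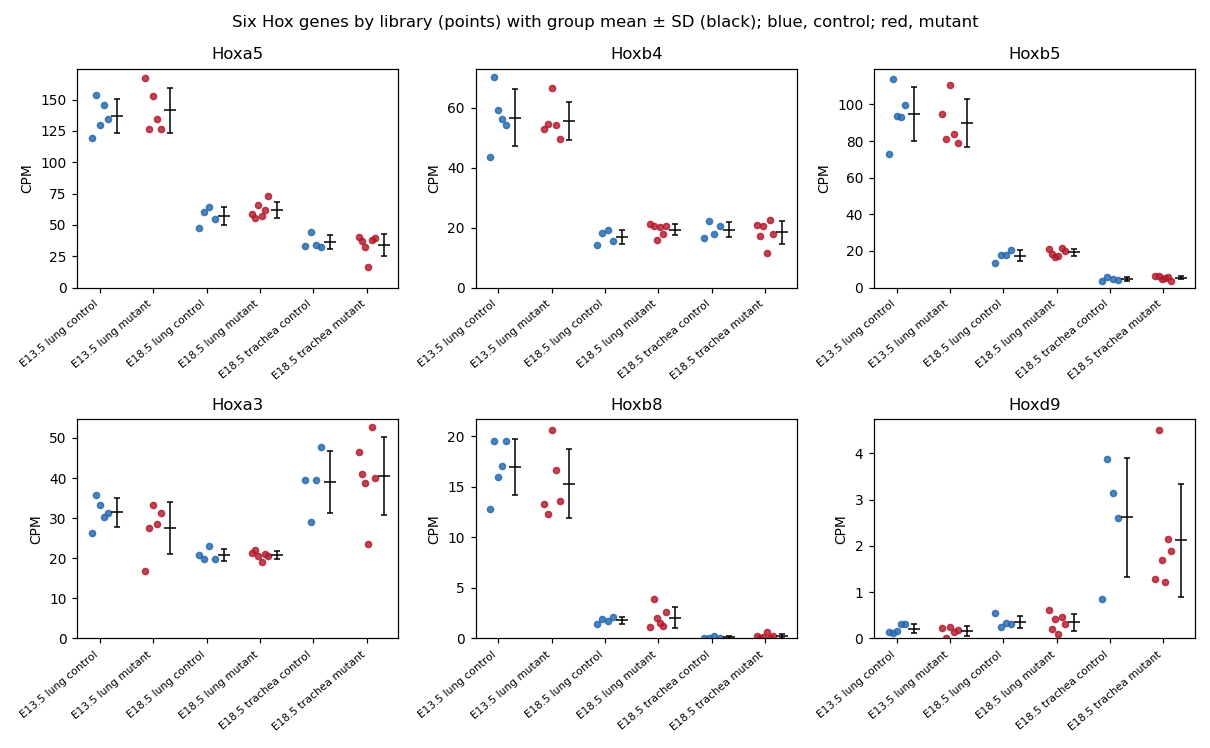
Level in CPM of 6 Hox genes in each library of the 6 groups (blue points, controls; red points, mutants), with group mean ± SD in black. Hoxb4 sits at about the same level in lung and trachea at E18.5, Hoxb5 and Hoxb8 are lower in trachea, Hoxa3 and Hoxd9 are higher there, and mutants overlap controls for every gene shown.

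Ratios of genes within a library do not depend on library size. Those given here are formed from genes already compared above, so they are no separate support. Per length, Hoxb5 stood to Hoxb4 as 0.886 to 1.26 in the 4 control lungs at E18.5 and as 0.202 to 0.252 in the 4 control tracheas, with 0.828 to 1.14 and 0.205 to 0.448 in the 6 mutant lungs and 6 mutant tracheas. Hoxa5 stood to Hoxa4 as 5.63 to 7.41 in control lungs and as 2.04 to 2.61 in control tracheas. The ratio of Hoxb8 to Hoxb4 was 0.0866 to 0.132 in control lungs and at most 0.0147 in control tracheas. None of these 3 ratios overlapped between control lungs and control tracheas, and no share over all gene pairs was computed.

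Bulk tissue mixes cell types, and fewer cells of a type and less RNA per cell cannot be told apart. Trachea and lung differ in makeup: of 6 mesenchyme genes 3 were higher and 2 lower in control tracheas, and their summed level was 16147 to 23597 CPM against 3113 to 3954 CPM in lungs. All 4 endothelial genes were lower, at sums of 365 to 405 against 2553 to 2765 CPM. All 5 genes of neurons and glia were higher, at 38.2 to 97.0 against 7.26 to 8.98 CPM, and so were 6 of 7 skeletal muscle genes, at 28.2 to 1409 against 11.3 to 31.0 CPM, and 3 of the 4 thyroid and parathyroid genes tested, at 4.91 to 624 against 1.79 to 2.65 CPM. The part of these cell types in the Hox differences was not tested. Without trachea control replicate 2 and mutant replicate 4, 16 of 18 members were called in each genotype, 9 higher and 7 lower. That run called 10587 of all 20425 genes tested in controls and 12538 of them in mutants.

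Between E13.5 and E18.5 most Hox genes of the lung fell. In control lungs 15 of 20 tested members were lower at E18.5 and 0 were higher, against 37.3% lower and 37.4% higher among all 18639 genes tested (74.7% called). The median log2 fold change was -1.71 over the tested members and -0.01 over all genes. Mutant lungs had 16 of 20 lower and 0 higher, against 38.4% lower and 37.2% higher (75.7% called), with a median of -1.48. Hoxb1, Hoxb9 and Hoxc5 passed the filter on low counts in E13.5 lung and not in E18.5 lung, and Hoxd9 the other way round. The filter thus favoured a fall for the former and a rise for Hoxd9. Hoxb1 and Hoxc5 are among the lower genes in both genotypes, and Hoxb9 in mutants. Groups did not overlap for 16 of the 20 members in controls, against 70.9% of all genes, and for 12 in mutants, against 58.1%. Stage goes together with the lobes taken (right and left at E13.5, right at E18.5) and with the table, which cannot be told apart from it.

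**Figure D4:**
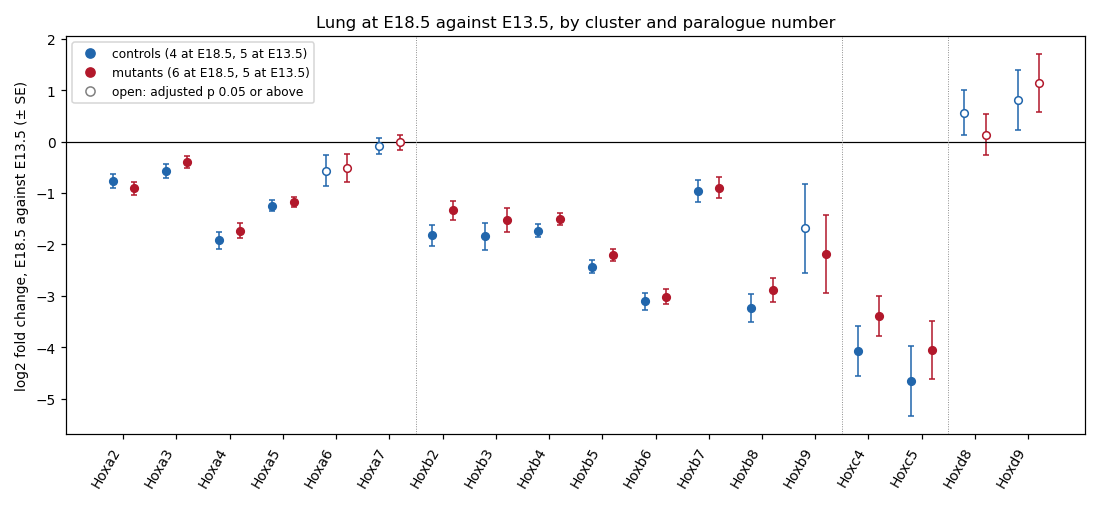
Log2 fold change of lung at E18.5 against E13.5 for tested Hox genes, ordered by cluster and paralogue number, in controls (blue, 4 and 5 libraries) and mutants (red, 6 and 5); bars are SE and open points did not pass the edgeR test. All called genes lie below 0, Hoxa7, Hoxd8 and Hoxd9 lie near or above it, and Hoxb1, without reads at E18.5, is left out.

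Several central genes fell by a wide margin. Hoxc4 was at 3.51, 10.4, 5.0, 4.88 and 4.49 CPM in the 5 control lungs at E13.5 and at 0.170, 0.596, 0.240 and 0.278 CPM in the 4 at E18.5, with a log2 fold change of -4.07 (SE 0.481, edgeR adjusted p 4.5e-08). Hoxc5 was at 1.6, 4.54, 2.04, 1.89 and 1.46 CPM and then at 0, 0.0298, 0.240 and 0.0795 CPM, at -4.66 (SE 0.685, edgeR adjusted p 1.5e-06). In both genes E13.5 control replicate 2 was the highest library by a wide margin, and no E18.5 library came near the E13.5 range. Without E18.5 control lung replicate 3 the value for Hoxc5 was -5.84. Hoxb8 was at 12.8, 19.5, 15.9, 17.1 and 19.5 CPM at E13.5 and at 1.39, 1.91, 1.72 and 2.11 CPM at E18.5, a log2 fold change of -3.24 (SE 0.276, edgeR adjusted p 1.4e-10).

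Hoxb6 and Hoxb5 fell alongside it. Hoxb6 was at 29.9, 53.1, 40.9, 37.5 and 39.7 CPM at E13.5 in controls and at 4.41, 4.50, 5.12 and 4.41 CPM at E18.5, at a log2 fold change of -3.11 (SE 0.170, edgeR adjusted p 3.2e-14). Hoxb5 was at 72.9, 114, 93.7, 93.0 and 99.5 CPM and then at 14, 17.5, 17.9 and 20.6 CPM, at -2.43 (SE 0.134, edgeR adjusted p 3.4e-14). The ratio of Hoxb5 to Hoxb4 per length within a library accordingly went from 1.52 to 1.75 at E13.5 to 0.886 to 1.26 at E18.5 in controls. Hoxa5 was at 119, 154, 130, 146 and 135 CPM at E13.5 and at 47.8, 60.4, 64.2 and 54.9 CPM at E18.5, a log2 fold change of -1.25 (SE 0.105, edgeR adjusted p 1.0e-10). It fell less in log2 terms than Hoxb5, and the ratio of Hoxb5 to Hoxa5 per length was 0.427 to 0.518 at E13.5 and 0.195 to 0.262 at E18.5.

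Other members fell as well in controls. Hoxa4, Hoxb3, Hoxb2 and Hoxb4 had log2 fold changes of -1.92 (SE 0.164), -1.84 (SE 0.265), -1.83 (SE 0.206) and -1.74 (SE 0.125). Hoxa2, Hoxa3 and Hoxb7 had -0.76 (SE 0.138), -0.57 (SE 0.130) and -0.96 (SE 0.221). Hoxb1 went from 0.243 to 1.15 CPM to no read, so its mean at E13.5 was at least 20.8-fold higher than 3 counts over the 4 control lungs at E18.5. Of the anterior genes all 6 tested were lower, Hoxb1 among them, and of the 12 central genes tested 9 were lower. Over all genes 37.3% were lower and 37.4% higher. Called in either direction, the share of the central genes was near the 74.7% of all genes.

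A few members did not pass the test. Hoxa7 was at 5.07, 6.26, 5.04, 6.62 and 6.14 CPM at E13.5 in controls and at 6.75, 5.04, 4.70 and 5.13 CPM at E18.5. These ranges overlapped, and the log2 fold change of -0.09 (SE 0.159, 95% interval -0.40 to 0.22) did not pass. Hoxd8 at 0.56 (SE 0.438) and Hoxd9 at 0.81 (SE 0.584) did not pass either. Hoxa6 was lower in each E18.5 control lung than in any at E13.5 but did not pass, at -0.57 (SE 0.303, edgeR adjusted p 0.0952). It passed in controls, at -0.53 (edgeR adjusted p 0.0104), where the mutant libraries were left out of the fit, and at -0.62 (edgeR adjusted p 0.0149) without E13.5 control replicates 1 and 2 and mutant replicate 1. Hoxb9 passed in mutants, at -2.19 (SE 0.763, edgeR adjusted p 0.0122), and not in controls, at -1.68 (SE 0.865, edgeR adjusted p 0.0825). The test of the difference between genotypes was passed by 0 of 20 members (0.0268% of all genes were called). For Hoxb1, without a read in E18.5 lung, it could not decide.

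Comparisons with E18.5 lung share its libraries, so values for stage and tissue are set side by side only. Hoxb5, Hoxb6 and Hoxb8 were at means of 94.6, 40.2 and 17 CPM in control lung at E13.5, at 17.4, 4.61 and 1.78 CPM at E18.5 and at 4.59, 0.460 and 0.0962 CPM in trachea. Hoxa3 was at 31.4, 20.9 and 39 CPM in the same order, Hoxa2 at 17.5, 10.2 and 17.7 CPM, and Hoxd9 at 0.206, 0.361 and 2.62 CPM. Markers moved with stage too: all 8 lung epithelium genes and all 4 endothelial genes were higher at E18.5 in controls, the latter at sums of 2553 to 2765 against 590.5 to 779.5 CPM. Of 6 mesenchyme genes 1 was higher and 2 were lower, at sums of 3113 to 3954 against 3234 to 3913 CPM. Of 5 genes of neurons and glia 4 were lower and 0 higher, at sums of 7.26 to 8.98 against 16.3 to 20.9 CPM, and of 6 cartilage genes tested 4 were lower and 0 higher, at 50.8 to 65.2 against 221 to 257 CPM. Their part in the Hox falls was not tested.

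No Hox gene differed detectably between Myocd mutants and controls. By edgeR 0 of 19 tested members passed in E13.5 lung, 0 of 17 in E18.5 lung and 0 of 15 in trachea, where 0.206%, 0.578% and 0.071% of all genes were called. At an unadjusted p under 0.05 the main edgeR fit gave 0 in each. Without a filter on low counts edgeR gave 0, 3 and 0, and with a replicate block 1, 0 and 0. DESeq2 called 0 in each, and at an unadjusted p under 0.05 it gave 0, 1 and 0. In none of the 3 tables did any tested member have control and mutant libraries that did not overlap, against 0.983%, 2.42% and 2.33% of all genes. The median log2 fold change of tested members was -0.12, 0.12 and 0.08, against 0.01, 0.01 and 0.02 over all genes.

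**Figure D5:**
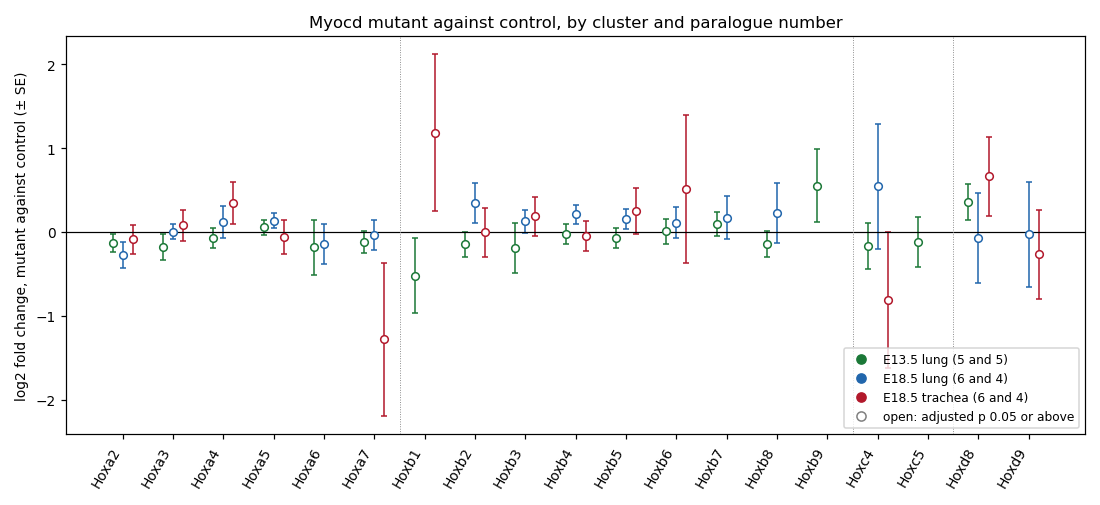
Log2 fold change of Myocd mutant against control for tested Hox genes in E13.5 lung (green, 5 mutants and 5 controls), E18.5 lung (blue, 6 and 4) and E18.5 trachea (red, 6 and 4), ordered by cluster and paralogue number; bars are SE. All points are open, since none passed the edgeR test, and the widest bars belong to low genes of the trachea such as Hoxa7 and Hoxb1.

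The precision of this differed by tissue and by level. Hoxa5 was at 167, 127, 153, 135 and 126 CPM in the 5 mutant lungs at E13.5 and overlapped the controls, with a log2 fold change of 0.05 (SE 0.0928, 95% interval -0.13 to 0.24, edgeR adjusted p 0.998). In E18.5 lung its 6 mutants ran from 55.9 to 73.2 CPM with a median of 60.1 CPM, at 0.13 (SE 0.0928, interval -0.05 to 0.32). In mutant trachea it ran from 16.5 to 40.4 CPM with a median of 37.5 CPM, at -0.06 (SE 0.204, interval -0.46 to 0.34). The sign of the Hoxa5 value turned in E13.5 lung without mutant replicate 1, and in trachea without control replicate 2 or mutant replicate 4.

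Hoxb5 in E13.5 lung was at 94.8, 80.9, 111, 83.7 and 78.8 CPM in mutants, at a log2 fold change of -0.07 (SE 0.120, 95% interval -0.31 to 0.16). Hoxb4 had the lowest p in E18.5 lung: 14.2 to 19.3 CPM in the 4 controls and 16 to 21.2 CPM with a median of 20.3 CPM in the 6 mutants, at 0.21 (SE 0.115, interval -0.01 to 0.44, edgeR adjusted p 0.597). Hoxd8 had the lowest p in the other tables. Its values were 0.556, 0.540, 0.957, 0.719 and 0.630 CPM in E13.5 controls and 1.0, 0.660, 0.980, 0.994 and 0.718 CPM in mutants, at 0.36 (SE 0.216, edgeR adjusted p 0.998). In trachea its 6 mutants ran from 3.53 to 6.29 CPM, at 0.66 (SE 0.469, interval -0.26 to 1.58, edgeR adjusted p 0.786). Hoxa2 in trachea was at -0.09 (SE 0.172).

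TALE homeodomain proteins of the PBX, MEIS and PREP (Pknox) families bind DNA together with Hox proteins. All 9 of their genes were tested. In control trachea against lung 3 were higher and 4 lower, where 49.1% of all genes were called (24.5% higher, 24.6% lower). Meis1 at a log2 fold change of 0.35 (SE 0.110) and Pbx3 at 0.37 (SE 0.152) were among the higher, and the lower were Pknox2 at -0.95 (SE 0.146), Pknox1 at -0.84 (SE 0.118), Pbx2 at -0.62 (SE 0.0843) and Meis2 at -0.44 (SE 0.144). Between E13.5 and E18.5 in control lung 7 were lower and 2 higher, where 74.7% of all genes were called (37.3% lower, 37.4% higher). Meis1 at -1.20 (SE 0.0729) and Meis2 at -0.98 (SE 0.0687) were among the lower. Pbx4 at 1.47 (SE 0.297) and Pknox2 at 0.94 (SE 0.113) were the higher. The median over the 9 was -0.13 in the first comparison and -0.58 in the second, against 0.01 and -0.01 over all genes.

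A list of 28 regulators of Hox clusters held Polycomb and Trithorax genes, Cdx genes and genes of retinoic acid and GDF11 signalling. Between tissues 25 were tested, and 3 were higher and 11 lower in control trachea, at a median log2 fold change of -0.30. Called in either direction, the share was near the 49.1% of all genes, but these split evenly (24.5% higher, 24.6% lower). Cyp26a1, which breaks down retinoic acid, was at 8.62 CPM in trachea and 0.0768 CPM in lung, a log2 fold change of 6.73 (SE 0.680, edgeR adjusted p 7.1e-09). Kat6a, a histone acetyltransferase that activates Hox genes, was at -1.20 (SE 0.193), and Aldh1a2, which makes retinoic acid, at -0.94 (SE 0.206). With stage, 7 of 24 were higher and 12 lower in control lung. In either direction together this was near the 74.7% called over all genes (37.4% higher, 37.3% lower). Ezh2, the Polycomb methyltransferase of H3K27, fell from 228 to 52.8 CPM, at -2.09 (SE 0.0846), while its paralogue Ezh1 rose from 33.4 to 94.2 CPM, at 1.51 (SE 0.104). Cbx2 was at -2.09 (SE 0.0969), Gdf11 at -2.06 (SE 0.124) and Rarb, a retinoic acid receptor, at -1.80 (SE 0.247).

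Noncoding genes inside the clusters gave few reads: of 17 listed, 6 were tested between tissues and 5 between stages. Of the 6, 1 was higher and 1 lower in control trachea, where 49.1% of all genes were called. Hoxb5os, antisense to Hoxb5, was at 0.22 CPM in control trachea and 3.34 CPM in control lung, a log2 fold change of -3.76 (SE 0.614), and Hoxaas2 was at 21.1 and 8.57 CPM, at 1.31 (SE 0.206). Reads were counted without strand. A read on bases that a gene shares with its antisense partner could therefore not be assigned and was not counted. All 5 tested were lower at E18.5 than at E13.5 in control lung, where 37.3% of all genes were lower and 37.4% higher. None of the genes of these 3 lists passed between mutant and control in any table.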

How the data were processed

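RNA-seq libraries of lungs and tracheas were grouped by labelled genotype, stage and tissue. The authors deposited raw counts of reads per gene, aligned to GRCm38 with STAR (submitters' processing notes; version not given in the sources used here) and counted with featureCounts 1.6.2 on GENCODE vM17 without regard to strand, per the file headers. At the default options in those headers, reads that overlap 2 genes or map to several places are not counted, which lowers the counts of overlapping Hox genes. Libraries were made with a kit that does not mark strand and sequenced as single reads of 75 bases, per the labels' protocols. Nothing in the labels says whether animals of a group are littermates, so p-values measure the spread between these libraries.

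Gene IDs were matched to symbols of the reference annotation (53620 of 53715). Tests on the counts used edgeR 4.0.16 (R 4.3.3), with filterByExpr and TMM scaling, the robust quasi-likelihood F test and Benjamini-Hochberg adjustment over all genes tested and a threshold of 0.05. Mutant effects were fitted within a table. Tissue and stage contrasts, and their interactions with genotype, were fitted on both tables concerned. The main fits hold no term for pairs of lung and trachea, which only the replicate block takes in. SE is the size of a log2 fold change divided by the square root of F, and a 95% interval is 1.96 SE on either side. Levels are CPM on TMM-scaled sizes of all 30 libraries. DESeq2 1.42.0, other scalings, no filter, a replicate block and leaving out libraries were alternatives. The procedure was tested on simulated counts.

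Replicate numbers of E18.5 lungs and tracheas pair the libraries: deviations from group means correlated at r 0.158 to 0.287 over 4 control pairs and 0.120 to 0.294 over 6 mutant pairs, and all 10 pairs matched in sex-linked genes. No 2 libraries of a group were copies (lowest chi-square per degree of freedom 4.11 over 62 pairs).

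The 10 members highest per length were named, with up to 10 called members of largest change at 1 CPM or more in each comparison and, where none was called, the 2 most abundant and the one with the lowest p. Up to 6 cofactors or regulators past the threshold were named per comparison; those beyond the rule, and single low members, were chosen after their values were seen. Values of 1 member and 1 cofactor are not reported here, though counts over all members include them. The members and lists were chosen with earlier results of these data known.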

Additional observations from a re-analysis of the deposited data

Results flagged for a closer look

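Dixon's gap test was run on each gene and group with a mean of 1 CPM or more, 77 in all, and marked 13 libraries whose value lay far from the others of its group; chance marks about 1 in 20. Of these, 6 belong to the 3 libraries that stood apart over all genes. E13.5 mutant replicate 1 was the lowest of its group for Hoxa6, at 0.766 CPM against 4.50 to 5.08 CPM, and for Hoxb3, at 8.72 CPM against 32.9 to 39.4 CPM. Trachea mutant replicate 4 was the lowest for Hoxa4, at 6.8 CPM against 14.5 to 19 CPM, and for Hoxa5, at 16.5 CPM against 32 to 40.4 CPM, and the highest for Hoxb2, at 12.6 CPM against 5.02 to 7.34 CPM. Trachea control replicate 2 was the highest for Hoxa5, at 44.5 CPM against 32.5 to 33.7 CPM.

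E13.5 control replicate 2 was the highest for Hoxc4, at 10.4 CPM against 3.51 to 5.0 CPM, and for Hoxc5, at 4.54 CPM against 1.46 to 2.04 CPM. E13.5 control replicate 1, the library labelled without transgenes, was the lowest for Hoxb3, at 25.5 CPM against 36.1 to 39.8 CPM. E13.5 control replicate 3 was the highest for Hoxa6, at 5.79 CPM against 4.18 to 4.54 CPM, and E13.5 mutant replicate 3 the highest for Hoxb4, at 66.6 CPM against 49.5 to 54.4 CPM. In E18.5 control lung replicate 3 was the highest for Hoxb6, at 5.12 CPM against 4.41 to 4.50 CPM. In the trachea mutant replicate 2 was the highest for Hoxd9, at 4.51 CPM against 1.22 to 2.14 CPM.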

How the results depend on the processing

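Counts of members called stayed within 1.5 times their value under every alternative run. In control trachea against lung they were 17 by DESeq2, 16 without a filter, 14 from control libraries alone and 14 to 16 with single libraries left out, and in mutants 15 or 16 throughout. Between stages they were 15 or 16 in controls. In mutants they were 14 from mutant libraries alone, 20 by DESeq2, 23 without a filter (22 lower, 1 higher) and 16 or 17 otherwise. The count was 0 for the mutant effects and their differences in all. The mutant effect on Hoxa5 in E13.5 lung ran from -0.010 (without mutant replicate 1) to 0.097 with single libraries left out and was -0.0098 without 3 E13.5 libraries. Hoxb5 there ran from -0.16 to 0.00029 (without control replicate 2). Hoxa5 in trachea ran from -0.11 to 0.070 (without mutant replicate 4) with single libraries left out, and was 0.069 without control replicate 2. It was 0.21 without both, a set chosen, like that of 3 E13.5 libraries, after seeing the data. Over all 16 alternatives its lowest value was -0.22. Calls over all genes moved more: mutant effects called 34, 101 and 13 genes in E13.5 lung, E18.5 lung and trachea by edgeR, 79, 262 and 99 by DESeq2, 44, 192 and 22 without a filter, and 17 to 56, 26 to 205 and 3 to 16 with single libraries left out. In trachea they called 8 by library size alone and 45 without 2 libraries. The differences of mutant effects between tissues and stages called 5 and 5 by edgeR and 67 and 42 by DESeq2, with 2 to 9 and 3 to 19 when single libraries were left out, and that between tissues 2 by library size alone and 12 without 2 libraries. In mutant trachea against lung DESeq2 moved the median of all genes from 0.10 to 0.22 and library size alone to -0.06.

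The replicate block called 13 members in control trachea against lung, the 2 lost being named above, and 16 in mutants. Within a table or across stages the picture was mixed, and libraries of the same number correlated at -0.316 to 0.448. In E18.5 lung, at 0.00123 to 0.406, the own number was the best match in 3 of 4 pairs. It was so in 2 of 4 pairs in trachea and in controls across stages. In E13.5 lung and in mutants across stages it was so in 0 of 5. Whether numbers pair libraries within E18.5 lung or trachea is not settled by these values. With that block the counts of members were 0 for each mutant effect, 15 and 16 for stage in controls and mutants, and 0 for the differences, and over all genes the mutant effects called 0, 66 and 28 and the difference between stages 0. Most of the 21 members under 1 CPM in every group did not pass the filter on low counts, so these depths show little of them.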

Other observations

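Reads of a few low members came from some stages and tissues only; these genes were chosen after their values were seen. Hoxd13 had 77 reads, in all 10 lungs at E13.5 at 0.174 to 0.471 CPM, and none in the 20 libraries of E18.5. Hoxd10, of the same cluster, had none at E13.5, 19 reads in 4 of 10 lungs at E18.5, all of them mutant, and 43 reads in 7 of 10 tracheas, 32 of them in control tracheas and 11 in mutant ones. Hoxd1 had 37 reads over all 10 lungs at E13.5, 7 in 2 lungs at E18.5 and none in trachea, and Hoxc6 had 29, 9 and none. Hoxa9 had 54 reads over 10 lungs at E13.5, 65 over 8 at E18.5 and 8 over 2 tracheas. Without a filter on low counts, edgeR called Hoxd13 lower at E18.5 in control lung (adjusted p 0.000136).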
